A study of Mus musculus with 12 samples.

Results

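Glucose that enters a cell is split to pyruvate by the enzymes of glycolysis. Pyruvate is then reduced to lactate by lactate dehydrogenase, or it enters mitochondria through pyruvate dehydrogenase. Astrocytes are known for active glycolysis, for releasing lactate through monocarboxylate transporters and for holding most of the glycogen of the brain. Many glycolytic genes are targets of HIF-1, the oxygen-responsive transcription factor whose regulated subunit is encoded by *Hif1a*. The 38 genes listed for this pathway cover glucose uptake, glycolysis, lactate, pyruvate dehydrogenase, glycogen and *Hif1a*, and they were taken from the count table by name. Of these names, 37 had a row, and *Aldoa* had 2 rows under different identifiers, so that 38 of 18903 rows were followed. *Pygm* was not analysed here. All 38 rows passed edgeR's filter on low counts.

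The counts came from RNA-seq of primary astrocytes grown from the brains of mice taken at postnatal day 1 (P1), P6 and P8. Each age had 2 libraries labelled WT and 2 labelled *Rack7*-cKO, which makes 12 libraries in 6 groups. In the cKO mice exons 3 and 4 of both *Rack7* alleles are floxed, and Cre is driven by the human GFAP promoter, which is active in neural stem cells of the embryonic forebrain. By the study's definition the WT mice carry the same Cre transgene with intact *Rack7*. The brains were freed of meninges, and the cultures were shaken to remove microglia and oligodendrocytes before they were grown to confluence. The replicates are labelled as biological, but the sources used here do not give the number of animals behind each library. The p-values therefore measure the spread between these libraries.

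Library totals lay between 54413504 and 89183250 counts. Levels are given as CPM, the usual scaling of a count to the total of its library, here with TMM-adjusted totals, and as CPM per kilobase of exon (RPKM) where genes are compared with each other. A gene was called at a Benjamini-Hochberg adjusted p below 0.05 in edgeR's quasi-likelihood test over 17938 genes. With 2 libraries against 2, an exact permutation test of a single gene cannot go below p = 0.333. *Zmynd8*, the gene that encodes RACK7, had more counts in the libraries labelled cKO, with log2 fold changes of 0.65, 1.04 and 0.70 at P1, P6 and P8 (adjusted p = 3.16e-05, 4.97e-07 and 3.78e-06). Counts over the whole gene do not show whether the floxed exons are missing, and the immunoblots of RACK7 protein made in the study are not analysed here, so all directions below are between libraries labelled cKO and libraries labelled WT.

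The libraries also differed in genes of other cell types. Fibroblast and meningeal markers added up to 31140 and 28990 CPM at P8 under the label WT, and to 8287 and 8537 CPM under the label cKO. Microglia markers summed to 3164 and 3022 CPM (WT) and to 6292 and 6244 CPM (cKO). Astrocyte markers summed to 1910 and 2302 CPM against 971.3 and 974.7 CPM. In bulk RNA, fewer cells of a type and less RNA per cell cannot be told apart, and the part of these differences in the results below was not tested.

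The regions just upstream of the genes are shown for 5 members on which the comparisons turn, 3 that were higher and 2 that were lower in the P8 libraries labelled cKO. Each is the 250 bases before the RefSeq start of the gene on GRCm38.p6, read along the strand of the gene. *Pgk1* lies on the plus strand (chrX:106186850-106187099), *Hk2* on the minus strand (chr6:82774455-82774704), *Eno1* on the plus strand (chr4:150236458-150236707), *Slc16a1* on the plus strand (chr3:104638414-104638663) and *Ldhb* on the minus strand (chr6:142507958-142508207). Capitals mark ACGTG or GCGTG on either strand, the core of the element that HIF-1 binds.
Pgk1: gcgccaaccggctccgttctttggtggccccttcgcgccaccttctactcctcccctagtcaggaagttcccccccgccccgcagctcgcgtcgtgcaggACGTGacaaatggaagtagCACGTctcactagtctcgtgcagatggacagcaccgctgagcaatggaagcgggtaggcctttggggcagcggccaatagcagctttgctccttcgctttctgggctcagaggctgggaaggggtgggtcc
Hk2: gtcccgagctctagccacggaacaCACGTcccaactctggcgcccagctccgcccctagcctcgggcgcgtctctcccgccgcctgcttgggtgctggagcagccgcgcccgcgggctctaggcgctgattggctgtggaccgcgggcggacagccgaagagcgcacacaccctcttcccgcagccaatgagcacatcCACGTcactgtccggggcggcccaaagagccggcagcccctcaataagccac
Eno1: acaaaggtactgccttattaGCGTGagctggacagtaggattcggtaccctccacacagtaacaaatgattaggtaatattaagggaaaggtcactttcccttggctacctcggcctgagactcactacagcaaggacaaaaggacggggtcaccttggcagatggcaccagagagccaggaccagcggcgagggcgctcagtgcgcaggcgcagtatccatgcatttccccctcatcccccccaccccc
Slc16a1: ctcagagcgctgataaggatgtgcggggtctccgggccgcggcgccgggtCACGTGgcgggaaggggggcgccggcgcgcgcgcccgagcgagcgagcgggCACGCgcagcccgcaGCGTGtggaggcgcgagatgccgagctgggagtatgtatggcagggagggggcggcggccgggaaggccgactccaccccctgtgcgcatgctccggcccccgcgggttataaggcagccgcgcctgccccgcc
Ldhb: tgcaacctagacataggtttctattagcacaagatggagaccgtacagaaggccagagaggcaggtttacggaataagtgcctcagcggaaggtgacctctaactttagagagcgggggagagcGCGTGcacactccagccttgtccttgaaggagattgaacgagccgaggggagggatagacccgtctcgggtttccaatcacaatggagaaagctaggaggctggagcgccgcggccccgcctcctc

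The core occurred in the upstream regions of 27 of the 35 members found in the RefSeq table, which is 77.1%. Over all 32851 promoters of that table the share was 38.6%, and over 13889 promoters of protein-coding genes in the count table it was 53.3%. The E-box CACGTG, which contains the core, occurred in 6 members (17.1%) against 6.02% and 7.97%. *Slc16a1* and *Ldhb*, both lower at P8, held the core as did *Pgk1*, *Hk2* and *Eno1*, while *Pkm* and *Aldoa*, both higher, had no match in this window. The window of *Aldoa* (chr7:126800448-126800697, minus strand) lies inside the annotated gene, whose 5' end is at 126800751. The region upstream of that end was not searched. The windows of *Hif1a*, *Ldha*, *Gapdh*, *Pfkfb2*, *Pfkl* and *Slc16a3*, which held the core, also lie wholly inside the annotated genes. Some other windows overlap the annotated gene in part. *Hif1a* and *Ldha* are among the 6 members with the E-box. A match is a description of letters and not of binding. *Slc2a3*, *Slc16a7* and the minor *Aldoa* row were not searched.

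Per length, the most abundant of the rows as counted was *Pkm*, the last enzyme of glycolysis, with a mean of 218 RPKM over the 12 libraries. *Aldoa* (181), *Pgk1* (168), *Pgam1* (161), *Ldha* (130) and *Eno1* (106) followed. *Slc2a1*, the main glucose transporter of astrocytes, reached 18.4 RPKM and *Hif1a* 35.0 RPKM. The lowest were *Ppp1r3c* at 2.18, *Slc16a7* at 0.579 and the minor *Aldoa* row at 0.509 RPKM. The row named *Gapdh* stood at 9.88 RPKM. It held only 1.99% to 3.49% of the counts of gene and matching pseudogenes, so the place of *Gapdh* in this order is uncertain.

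At P8 the libraries labelled cKO had more RNA for *Slc2a1*, *Hk2* and 7 of the 10 rows from aldolase to pyruvate, and less for *Slc16a1*, *Ldhb*, *Aldoc*, *Pygb* and *Ppp1r3c*. Of the 38 rows, 15 were called higher (39.5%) and 11 lower (28.9%), where 19.6% and 14.8% of all genes tested were called. With a fold change of at least 1.5 as well, 8 were higher and 7 lower (21.1% and 18.4%, against 11.2% and 8.37% of all genes). The median log2 fold change was 0.13 over the members and 0.01 over all genes. It was 0.07 (all genes 0.02) without P8 WT replicate 1 and 0.07 (all genes -0.05) with library totals as the only scaling, and between 0.11 and 0.15 in the other settings. At P6, 13 rows were higher and 9 lower (34.2% and 23.7%, against 13.2% and 12.5%), and 2 each way passed the fold change (5.26% each, against 7.16% and 6.38%). At P1, 3 were higher and 3 lower (7.89% each, against 6.54% and 2.94%). At this age none was higher and 1 lower by 1.5-fold, against 4.01% and 0.892% of all genes. Without P1 WT replicate 1, P1 WT replicate 2 or P1 cKO replicate 2 the count higher at P1 was 1, and without P1 WT replicate 1 the count lower was 5. The study's cut-offs, an unadjusted p below 0.05 and 1.5-fold, were also applied, here to edgeR's p where the study used ballgown and DESeq2. By this rule none was higher at P1 (0%, against 6.39% of all genes) and 2 were lower, *Ldhb* and *Slc16a7* (5.26%, against 2.48%). That rule gave 2 each way at P6 (against 8.95% and 7.94%), and 8 higher and 7 lower at P8 (against 12.7% and 9.71%).

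These shares have to be read with the depth of the members. Their median level was 73.3 CPM, against 16.2 CPM over all genes tested, and the median standard error of their log2 fold changes at P8 was 0.0735, against 0.151. The part of this in the shares was not tested. Of the 38 rows, 10 were called at no age, 8 at 1 age, 14 at 2 and 6 at all 3. The direction of the calls was higher alone for 16 rows and lower alone for 7. *Pfkm*, *Eno2*, *Pgam1*, *Ldha* and *Hif1a* were called in both directions at different ages. These counts across ages were not made over all genes tested, so whether they are unusual cannot be said.

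**Figure D1:**
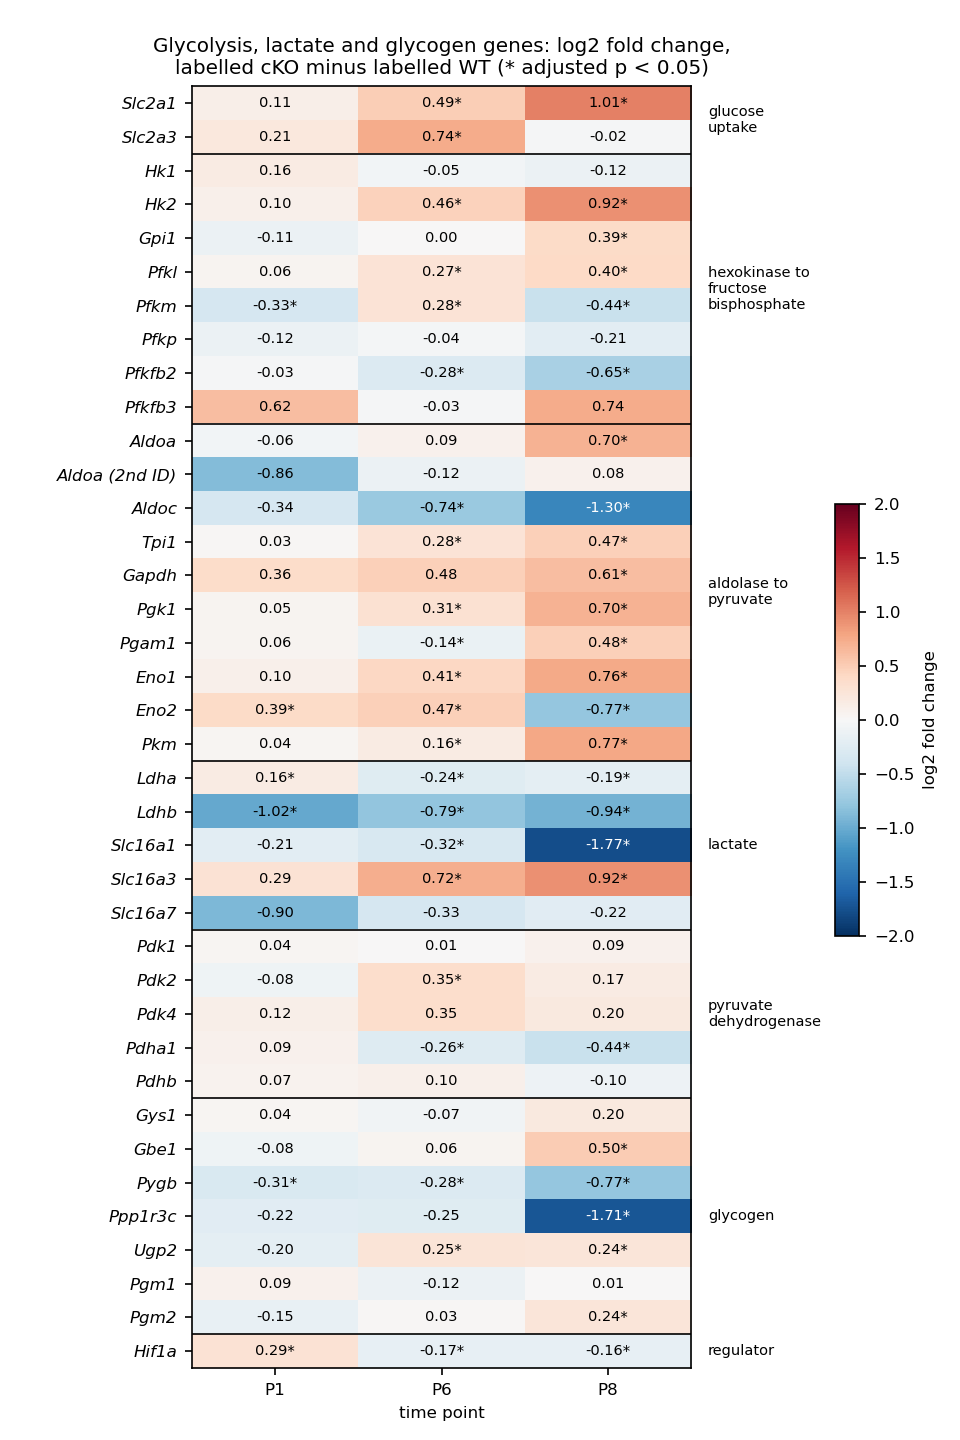
Log2 fold change of each member, libraries labelled cKO minus libraries labelled WT, at P1, P6 and P8, with 2 libraries per group and asterisks for an adjusted p below 0.05. Red cells fill most of the aldolase to pyruvate block at P8, where 7 of 10 rows were higher, and the 2 darkest blue cells are *Slc16a1* (-1.77) and *Ppp1r3c* (-1.71) at P8.

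The glucose uptake genes were *Slc2a1* and *Slc2a3*, which encode the transporters GLUT1 and GLUT3. *Slc2a1* gave 64.7 and 67.2 CPM at P1, 55.9 and 53.6 CPM at P6 and 39.5 and 39.4 CPM at P8 in the libraries labelled WT. In those labelled cKO it gave 73.8 and 68.9, 81.1 and 72.6, and 76.9 and 82.2 CPM. The groups did not overlap at any age, and the level under the label WT fell at both steps between ages. The log2 fold change was 0.49 ± 0.0708 (SE) at P6 and 1.01 ± 0.0714 at P8 (adjusted p = 0.000830 and 5.37e-06), while the 0.11 ± 0.0707 at P1 did not pass.

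*Slc2a3*, a transporter best known from neurons, followed another course. It gave 38.4 and 42.1 CPM at P1, 24.4 and 24.1 CPM at P6 and 14.5 and 13.7 CPM at P8 under the label WT, against 47.8 and 45.4, 40.7 and 40.0, and 12.6 and 15.2 CPM under the label cKO. It was higher at P6 by a log2 fold change of 0.74 ± 0.0977 (adjusted p = 0.000516). At P8 the groups overlapped, and the difference of -0.02 had a 95% confidence interval from -0.24 to 0.20.

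The first steps of glycolysis trap glucose as a phosphate and commit it at phosphofructokinase. Of 8 rows for these steps, 3 were higher and 2 lower at P8, a comparison in which 19.6% and 14.8% of all genes were called. *Hk2*, an inducible hexokinase, gave 132 and 133 CPM at P1, 99.8 and 102 CPM at P6 and 56.1 and 54.7 CPM at P8 under the label WT. Under the label cKO it gave 143 and 141, 138 and 141, and 103 and 107 CPM. The groups lay apart at all 3 ages, and the log2 fold change was 0.46 ± 0.0440 at P6 and 0.92 ± 0.0444 at P8 (adjusted p = 6.2e-05 and 4.45e-07). *Hk1*, the hexokinase of most brain cells, was not called at any age, with log2 fold changes of 0.16, -0.05 and -0.12. Leaving out P8 WT replicate 1 brought *Hk1* to -0.22 at P8 (adjusted p = 0.0391).

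*Gpi1*, the isomerase of the second step, was the most abundant of this block. It gave 370 and 374, 355 and 327, and 298 and 267 CPM under the label WT at P1, P6 and P8, and 340 and 349, 351 and 331, and 376 and 364 CPM under the label cKO. The groups overlapped at P6 only. The P8 log2 fold change was 0.39 ± 0.0596 (adjusted p = 0.000813). At P1 the libraries labelled cKO lay below those labelled WT, by a difference of -0.11 that did not pass (adjusted p = 0.337).

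The phosphofructokinase genes did not move as one. *Pfkl*, the liver form, was higher by a log2 fold change of 0.27 at P6 and 0.40 at P8 (adjusted p = 0.0266 and 0.00268). *Pfkm*, the muscle form, was lower at P1 (-0.33, adjusted p = 0.00442), higher at P6 (0.28, adjusted p = 0.00403) and lower again at P8 (-0.44, adjusted p = 0.000175). *Pfkp*, the platelet form, was not called, with log2 fold changes between -0.21 and -0.04 and a standard error of 0.133. It passed at P8 in a fit of the P8 libraries alone (-0.23, adjusted p = 0.0224).

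*Pfkfb2* and *Pfkfb3* encode bifunctional enzymes that set the level of fructose 2,6-bisphosphate, an activator of phosphofructokinase. *Pfkfb2* gave 26.4 and 25.1, 32.2 and 31.5, and 50.2 and 50.5 CPM under the label WT, and 24.7 and 25.7, 24.7 and 27.9, and 32.5 and 31.8 CPM under the label cKO. Its log2 fold change was -0.28 at P6 and -0.65 at P8 (adjusted p = 0.0252 and 0.000143). *Pfkfb3* spread widely between replicates, with 88.4 and 40.2 CPM at P8 under the label WT and 101 and 114 CPM under the label cKO. Its log2 fold change of 0.74 ± 0.361 did not pass at P8 (adjusted p = 0.152), and without P8 WT replicate 1 it was 1.42 (adjusted p = 0.0159).

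From aldolase to pyruvate the sugar is cut and oxidised, and ATP is gained. Of its 10 rows, 7 were higher and 2 lower at P8, against the same 19.6% and 14.8% of all genes, and *Gapdh* among the 7 was called by a narrow margin. The median log2 fold change of the block was 0.55, where that of all genes was 0.01. The summed CPM of the block was 2407 and 2362 at P8 under the label WT and 3861 and 3737 under the label cKO. The sums include the row named *Gapdh* but none of the matching pseudogene rows described below, which held most of the counts. At P6 the sums were 2901 and 3024 against 3484 and 3255 CPM, and at P1 they were 3248 and 3279 against 3310 and 3386 CPM. The groups lay apart at each age, by the least at P1, where 1 row was called (*Eno2*).

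*Pkm* gave 1100 and 1110 CPM at P1, 957 and 982 CPM at P6 and 841 and 826 CPM at P8 under the label WT. Under the label cKO it gave 1090 and 1170, 1120 and 1050, and 1440 and 1390 CPM. The groups overlapped at P1 and lay apart at P6 and P8, with log2 fold changes of 0.16 ± 0.0432 and 0.77 ± 0.0434 (adjusted p = 0.0214 and 1.32e-06). *Aldoa*, the widely expressed aldolase, gave 584 and 574, 455 and 495, and 396 and 399 CPM under the label WT, against 553 and 556, 528 and 485, and 663 and 633 CPM. It differed at P8 alone among the 3 ages, by 0.70 ± 0.0514 (adjusted p = 6.76e-06). Its minor row, with identifier ENSMUSG00000114515, stayed between 0.204 and 0.640 CPM and was not called.

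*Pgk1*, which makes the first ATP of the pathway, lies at chrX:106187100-106203699 on the plus strand. Under the label WT it gave 393 and 391, 323 and 344, and 276 and 275 CPM at P1, P6 and P8, and under the label cKO 404 and 405, 418 and 408, and 457 and 441 CPM. Every library labelled cKO was above those labelled WT of its age. The log2 fold change was 0.05 at P1 (adjusted p = 0.563), 0.31 ± 0.0377 at P6 (adjusted p = 0.000311) and 0.70 ± 0.0379 at P8 (adjusted p = 9.34e-07).

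*Eno1*, the common enolase, gave 542 and 573, 529 and 534, and 386 and 371 CPM under the label WT, against 607 and 591, 730 and 679, and 663 and 622 CPM. It was higher at P6 and P8 by 0.41 ± 0.0488 and 0.76 ± 0.0490 (adjusted p = 0.000280 and 2.90e-06). *Tpi1*, the triose phosphate isomerase, was higher by 0.28 at P6 and 0.47 at P8 (adjusted p = 0.00937 and 0.000341). *Pgam1*, the phosphoglycerate mutase, was lower at P6 (-0.14, adjusted p = 0.0260) and higher at P8 (0.48, adjusted p = 1.26e-05).

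The other aldolase and enolase genes went the opposite way at P8. *Aldoc*, the brain aldolase and a marker of astrocytes, gave 29.9 and 37.7, 58.4 and 58.2, and 40.2 and 38.2 CPM under the label WT, against 26.1 and 27.4, 34.6 and 35.4, and 16.5 and 15.3 CPM. Its log2 fold change was -0.74 ± 0.103 at P6 and -1.30 ± 0.104 at P8 (adjusted p = 0.000685 and 1.27e-05), and the -0.34 at P1 did not pass (adjusted p = 0.0791). Without P1 WT replicate 1 the P1 value was -0.50 (adjusted p = 0.0133). Among the 10 astrocyte markers, which include *Aldoc*, 8 were lower and 1 higher at P8, where 14.8% and 19.6% of all genes were.

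*Eno2*, the enolase of neurons, gave 18.4 and 19.3, 27.0 and 23.5, and 21.4 and 24.3 CPM under the label WT, against 23.7 and 25.7, 34.3 and 35.6, and 13.7 and 13.2 CPM. It was higher at P1 and P6 (0.39 and 0.47, adjusted p = 0.0396 and 0.00707) and lower at P8 (-0.77 ± 0.0988, adjusted p = 0.000269). The P1 call did not hold when any P1 library was left out, with adjusted p between 0.0776 and 0.191, nor without any one of the P6 and P8 libraries labelled cKO (adjusted p between 0.0537 and 0.0654). Of the neuron markers 4 were tested, and 3 were higher and none lower at P6 and again at P8. Over all genes 13.2% were higher and 12.5% lower at P6, and 19.6% and 14.8% at P8. *Eno2* and the neuron list thus differed in opposite directions at P8.

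**Figure D2:**
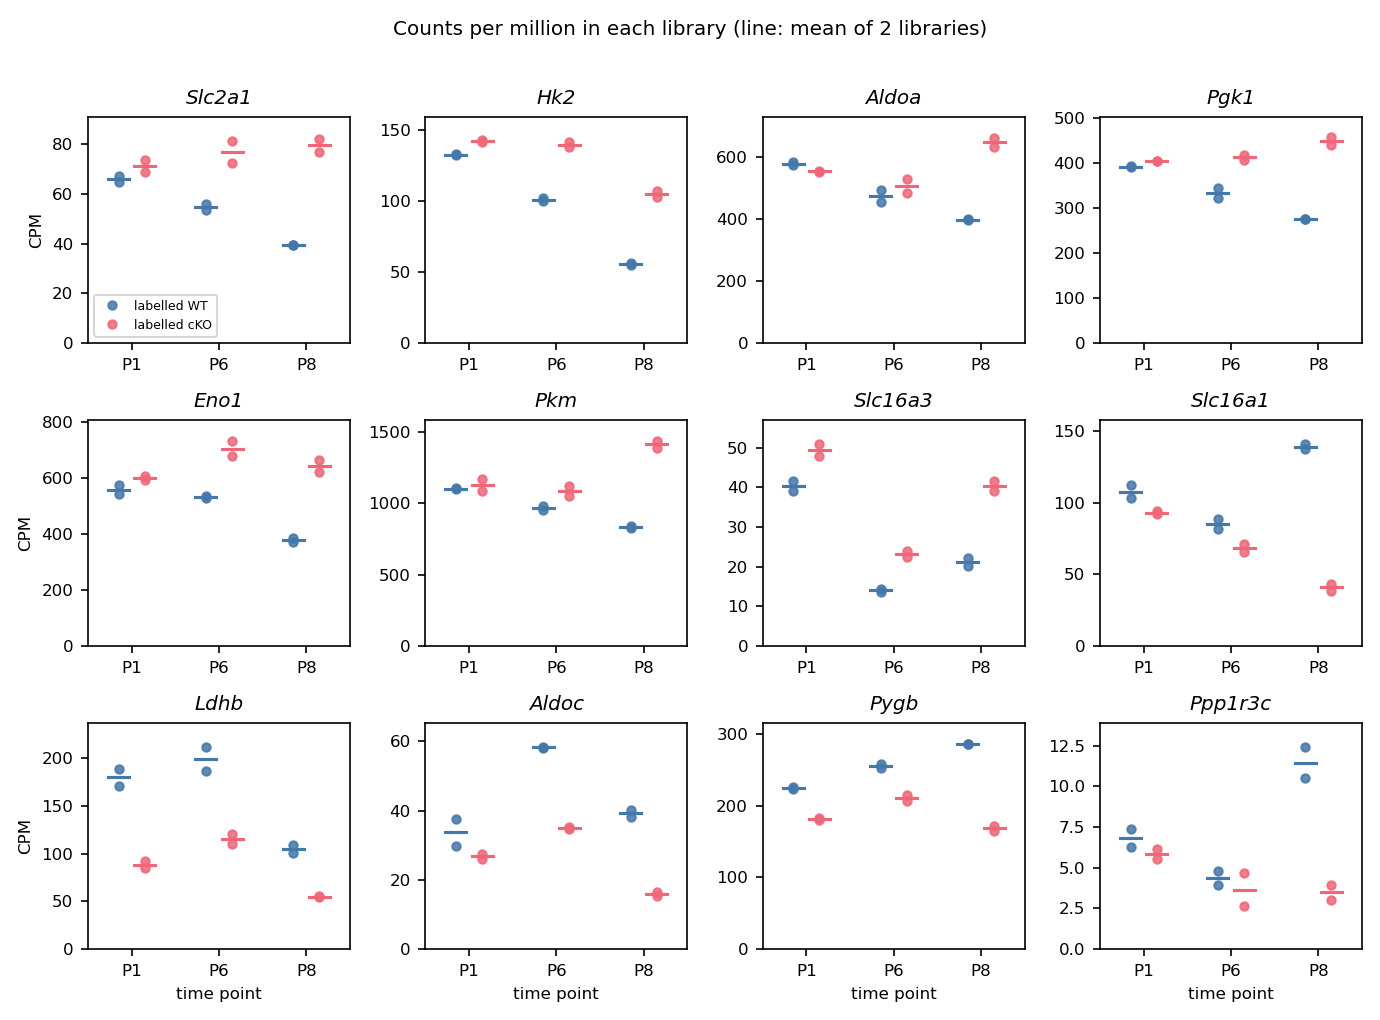
Level of 12 members in CPM in each of the 12 libraries, with points for libraries, lines for the mean of 2 libraries and colours for the labels. *Slc2a1*, *Hk2*, *Pgk1* and *Eno1* decline with age under the label WT and stand higher under the label cKO, while *Slc16a1* at P8 reads 137 and 141 CPM (WT) against 38.7 and 43.1 CPM (cKO).

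*Gapdh*, the dehydrogenase between triose phosphate isomerase and *Pgk1* in the pathway, was listed at only 27.3 to 60.0 CPM, with a mean of 9.88 RPKM that put it at rank 27 of the 38 rows. The annotation holds 91 pseudogenes whose sequence matches its transcripts at 95% identity or more over at least 100 bases. Of these, 48 had rows in the count table, and their summed level was 975 to 1890 CPM. The *Gapdh* row held between 1.99% and 3.49% of the counts of gene and pseudogenes together. The sources used here do not say where reads with more than 1 match were counted, and the level of *Gapdh* itself is uncertain.

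The row named *Gapdh* gave 44.1 and 36.3, 31.4 and 37.2, and 27.3 and 29.1 CPM under the label WT, and 50.4 and 52.4, 60.0 and 35.7, and 42.3 and 44.0 CPM under the label cKO. It was called at P8 (0.61 ± 0.207, adjusted p = 0.0468), a call that was lost when any one library other than the P6 libraries labelled cKO was left out (adjusted p between 0.0533 and 0.174). It was also lost with DESeq2 size factors (0.59, adjusted p = 0.0518), with upper quartile scaling (0.60, adjusted p = 0.0534), with library totals alone (0.55, adjusted p = 0.0681) and with the replicate number as a block (0.61, adjusted p = 0.0581). The summed rows gave 1030 and 1000 CPM against 1550 and 1550 CPM at P8, so the direction was the same. With pseudogene rows summed, an alternative chosen after the low level of *Gapdh* was seen, P6 was called too (0.14, adjusted p = 0.0251). Without P6 cKO replicate 2 the row alone gave 0.81 at P6 (adjusted p = 0.00369).

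Among the other members with matching pseudogenes in the table, *Eno1* had 3, with 39.1 to 75.9 CPM, and 8 others had 1 or 2 each. With these rows added, the P8 differences of *Eno1*, *Pgk1*, *Pgam1*, *Pkm*, *Tpi1*, *Gpi1*, *Ldha* and *Ldhb* were called in the same direction as without them. Only annotated pseudogenes were searched, and the row named *Eno1b* was not among the matches and was not added.

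**Figure D3:**
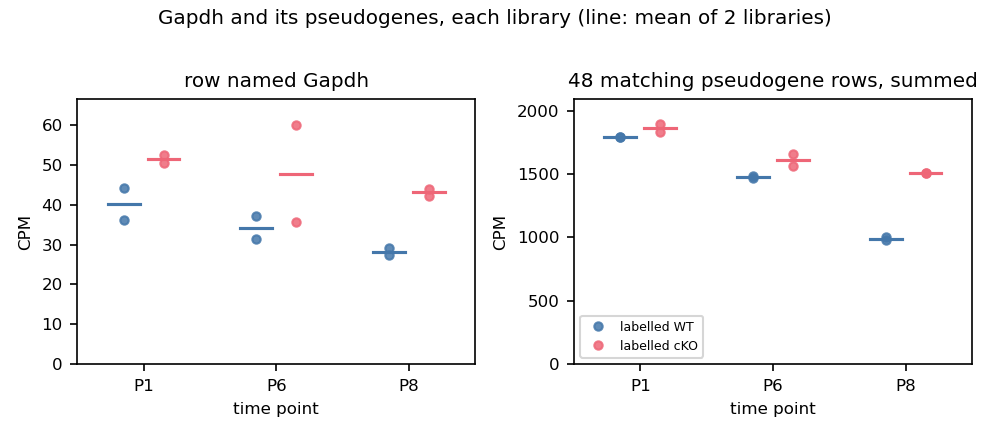
Level in CPM of the row named *Gapdh* (left) and of its 48 matching pseudogene rows summed (right) in each library, with points for libraries and lines for the mean of 2 libraries. The highest value is 60.0 CPM on the left and 1890 CPM on the right, and at P8 the libraries labelled cKO lie above those labelled WT in both panels.

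Lactate is made and used by the tetramers of *Ldha* and *Ldhb* products, with *Ldhb* known as the form that favours lactate use. *Ldhb* gave 171 and 189, 187 and 212, and 101 and 109 CPM under the label WT, against 84.6 and 92.5, 121 and 110, and 55.3 and 54.6 CPM under the label cKO. The groups lay apart at all 3 ages, and the log2 fold change was -1.02 ± 0.0856, -0.79 ± 0.0852 and -0.94 ± 0.0857 at P1, P6 and P8 (adjusted p = 8.92e-05, 0.000142 and 2.94e-05). At P1 it was the one member called at 1.5-fold or more. *Ldha* gave 341 and 337, 461 and 468, and 548 and 536 CPM under the label WT, against 370 and 386, 395 and 389, and 471 and 478 CPM. It was slightly higher at P1 (0.16, adjusted p = 0.0174) and lower at P6 and P8 (-0.24 and -0.19, adjusted p = 0.000585 and 0.00170). Without P1 WT replicate 1, P1 WT replicate 2 or P1 cKO replicate 2 the P1 call was lost, with adjusted p between 0.0775 and 0.116.

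Lactate leaves and enters cells through monocarboxylate transporters. *Slc16a1* (MCT1), at chr3:104638668-104658462 on the plus strand, had the largest difference of the 38 rows at P8. It gave 103 and 112, 81.9 and 88.2, and 137 and 141 CPM under the label WT, against 94.2 and 91.8, 65.6 and 70.8, and 38.7 and 43.1 CPM under the label cKO. The log2 fold change was -0.32 ± 0.0740 at P6 and -1.77 ± 0.0760 at P8, the latter 3.40-fold lower (adjusted p = 0.0118 and 2.14e-07). MCT1 is also made by endothelial cells. The endothelial marker *Cdh5* gave 133 ± 11 CPM under the label WT at P8 and 9.84 ± 0.354 CPM under the label cKO (SD, n = 2), while *Flt1*, another endothelial marker, gave 5.14 ± 1.72 and 19.4 ± 0.699 CPM.

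*Slc16a3* encodes MCT4, the transporter that astrocytes use to export lactate. It gave 39.0 and 41.7, 14.5 and 13.7, and 20.2 and 22.3 CPM under the label WT, against 51 and 48, 23.9 and 22.5, and 39.2 and 41.5 CPM. All libraries labelled cKO were above those labelled WT of the same age, with log2 fold changes of 0.29, 0.72 and 0.92 (adjusted p = 0.0556, 0.000208 and 2.45e-05). The P1 difference passed in DESeq2 (adjusted p = 0.0212). *Slc16a7* (MCT2), the transporter of neurons, was low and not called. Its P1 libraries labelled WT gave 5.23 and 13.6 CPM, and without replicate 1 of them the log2 fold change was -1.43 (adjusted p = 0.0111).

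The balance within these families moved as well, measured per length as a share of the family's RPKM and given as a description. *Slc16a3* made up 10.7% and 11.4% of the 3 transporters at P8 under the label WT and 44.2% and 42.9% under the label cKO. *Ldhb* made up 51.4% and 54.2% of lactate dehydrogenase at P1 under the label WT and 32.5% and 33.5% under the label cKO, and 28.0% and 30.1% against 19.9% and 19.4% at P8. *Hk2* made up 46.9% and 42.4% of the hexokinase pair at P8 under the label WT and 61.7% and 62.9% under the label cKO. At P1 these shares of *Hk2* were 64.1% and 65.2% against 63.9% and 63.7%. *Aldoc* made up 8.31% and 7.86% of aldolase against 2.17% and 2.12% at P8.

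**Figure D4:**
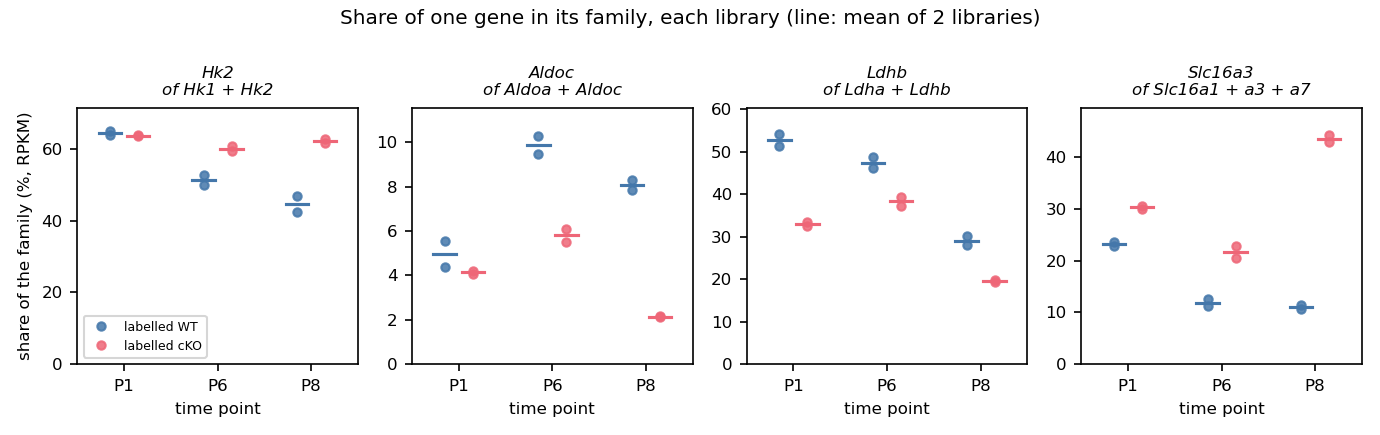
Share of *Hk2*, *Aldoc*, *Ldhb* and *Slc16a3* in their families, in percent of the family's RPKM, in each library with lines for the mean of 2 libraries. The widest gap is that of *Slc16a3* at P8, at 10.7% and 11.4% (WT) and 44.2% and 42.9% (cKO), and *Ldhb* lies lower under the label cKO at each age.

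Entry of pyruvate into the citrate cycle is gated by pyruvate dehydrogenase and closed by the kinases of the *Pdk* genes. *Pdha1*, its catalytic subunit, gave 169 and 165, 236 and 235, and 267 and 270 CPM under the label WT, against 175 and 179, 199 and 193, and 198 and 199 CPM. It did not pass at P1 (0.09, adjusted p = 0.183) and was lower at P6 and P8, with log2 fold changes of -0.26 ± 0.0351 and -0.44 ± 0.0352 (adjusted p = 0.000520 and 1.27e-05). The other subunit gene, *Pdhb*, was not called and ranged from 58.1 to 69.6 CPM. *Pdk2* was higher at P6 (0.35, adjusted p = 0.00876), while *Pdk1* and *Pdk4* were not called. *Pdk4* passed at P6 without P6 WT replicate 1 (0.59, adjusted p = 0.0108).

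In the glycogen group *Pygb* and *Ppp1r3c* were lower at P8 and *Gbe1* was higher. *Pygb*, the brain glycogen phosphorylase and the most abundant of the group, gave 223 and 226, 252 and 258, and 285 and 286 CPM under the label WT, against 180 and 183, 214 and 206, and 171 and 165 CPM. It was lower at all 3 ages, with log2 fold changes of -0.31 ± 0.0381, -0.28 ± 0.0381 and -0.77 ± 0.0382 (adjusted p = 0.00101, 0.000621 and 5.73e-07). *Ppp1r3c*, which brings protein phosphatase 1 to glycogen, gave 7.39 and 6.29, 4.77 and 3.94, and 10.5 and 12.4 CPM under the label WT, against 5.56 and 6.18, 2.62 and 4.70, and 3.03 and 3.97 CPM. It differed at P8 by -1.71 ± 0.267, a 3.27-fold lower level (adjusted p = 0.000924), at the lowest depth of the members called at 1.5-fold.

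*Gbe1*, the branching enzyme, was higher at P8 (0.50 ± 0.0989, adjusted p = 0.00369), and *Ugp2*, which makes UDP-glucose, was higher at P6 and P8 (0.25 and 0.24, adjusted p = 0.0174 and 0.0142). *Gys1*, the glycogen synthase outside liver, was not called, with a P8 difference of 0.20 and a confidence interval from -0.08 to 0.49. The names *Pgm1* and *Pgm2* are exchanged between the table and the annotation. The table's *Pgm1* (ENSMUSG00000029171, chromosome 5) is *Pgm2* in GENCODE and RefSeq, and the table's *Pgm2* (ENSMUSG00000025791, chromosome 4) is *Pgm1* there. The row named *Pgm2* was higher at P8 (0.24, adjusted p = 0.0139), and the row named *Pgm1* was not called.

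*Hif1a* gave 184 and 185, 157 and 153, and 280 and 286 CPM under the label WT, against 224 and 227, 132 and 143, and 252 and 256 CPM under the label cKO. It was higher at P1 (0.29 ± 0.0442, adjusted p = 0.00381) and lower at P6 and P8 (-0.17 and -0.16, adjusted p = 0.0223 and 0.0219). The RNA level is not a measure of HIF-1 activity, which is set mainly by the stability of the protein. Of 25 HIF-1 targets and oxygen sensing genes outside glycolysis, 7 were higher and 5 lower at P8, the same numbers at P6, and 4 higher and none lower at P1. Over all genes 19.6% were higher and 14.8% lower at P8, 13.2% and 12.5% at P6, and 6.54% and 2.94% at P1. *Epas1*, which encodes HIF-2 alpha, was higher at all 3 ages (0.28, 1.10 and 1.54, adjusted p = 0.0184, 1.42e-06 and 1.17e-07), with 33.1 ± 0.206 against 95.9 ± 1.39 CPM at P8 (SD, n = 2). *Car9*, a carbonic anhydrase, was higher at P6 and P8 (1.23 and 0.91, adjusted p = 0.000809 and 0.00336), and *Car12* was lower at P8 (-1.26, adjusted p = 0.0299).

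Several of these calls rested on single libraries. At P6, leaving out 1 P6 library ended the calls of *Pfkl*, *Pfkfb2*, *Tpi1*, *Pgam1*, *Eno2*, *Pkm*, *Slc16a1*, *Pdk2*, *Ugp2* and *Hif1a*, with adjusted p between 0.0521 and 0.149, in the following way. Without WT replicate 1 the calls of *Pfkl*, *Pfkfb2*, *Tpi1*, *Pgam1*, *Pkm*, *Pdk2*, *Ugp2* and *Hif1a* were lost, and without WT replicate 2 those of *Pfkfb2*, *Pgam1*, *Eno2*, *Pkm* and *Slc16a1*. Without cKO replicate 1 *Pfkl*, *Pfkfb2*, *Tpi1*, *Pkm*, *Slc16a1*, *Pdk2* and *Hif1a* were no longer called, and without cKO replicate 2 *Pfkl*, *Pgam1* and *Ugp2*. At P8 the call of *Hif1a* was lost without any one P8 library, that of *Pgm2* without WT replicate 1 or cKO replicate 2 and that of *Ugp2* without WT replicate 1 or either cKO replicate, with adjusted p between 0.0564 and 0.119. The P1 call of *Pfkm* was lost in a fit of the P1 libraries alone (adjusted p = 0.0522). No called direction was reversed in any alternative. Among the members with values in every library, *Slc2a1*, *Hk2*, *Gpi1*, *Pfkfb2*, *Aldoa*, *Gapdh*, *Pdha1* and *Hif1a* overlap a gene on the opposite strand, and without the use of strand in counting the reads of such pairs cannot be told apart.

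The change with age was then followed within each label. From P6 to P8 under the label WT, 9 rows rose and 19 fell (23.7% and 50.0%, against 16.2% and 19% of all genes). From aldolase to pyruvate 7 of 10 rows fell and none rose, among them *Eno1* (-0.49), *Pgam1* (-0.47) and *Pgk1* (-0.28), with adjusted p of 6.06e-05, 1.44e-05 and 0.000436. Under the label cKO 11 rose and 13 fell over the same step (28.9% and 34.2%, against 20% and 19.2%). From aldolase to pyruvate 4 rows rose and 2 fell, and those that rose were *Aldoa* (0.36), *Pkm* (0.39), *Pgam1* (0.14) and *Pgk1* (0.12), with adjusted p of 0.000444, 8.51e-05, 0.0162 and 0.0307.

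From P1 to P6, 10 rows rose and 11 fell under the label WT (26.3% and 28.9%, against 20.7% and 19.2%), while 10 rose and 3 fell under the label cKO (26.3% and 7.89%, against 19.7% and 18.7%). *Slc16a3* fell under both labels, by 1.52 on the log2 scale (WT, adjusted p = 7.27e-07) and by 1.09 (cKO, adjusted p = 8.35e-06). *Hif1a* fell from P1 to P6 and rose from P6 to P8 under both labels, the rise being 0.87 and 0.88 (adjusted p = 7.09e-07 and 4.68e-07). *Ldhb* fell from P6 to P8 under both, by 0.92 and by 1.07 on the log2 scale (adjusted p = 3.67e-05 and 9.10e-06). Of the genes that rose under the label WT from P6 to P8, *Ppp1r3c* (1.39, adjusted p = 0.00306) and *Slc16a1* (0.71, adjusted p = 8.15e-05) had large changes. *Slc16a1* fell by 0.74 under the label cKO over that step (adjusted p = 4.26e-05).

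Whether the difference between labels changed with age was tested as an interaction in the same fit. From P1 to P6 it changed for 13 rows (34.2%, against 15.3% of all genes), a count that was 7 without P1 cKO replicate 2 and 8 without P1 WT replicate 2 or without P6 WT replicate 1. From P6 to P8 it changed for 17 (44.7%, against 21.5%) and from P1 to P8 for 23 (60.5%, against 25.7%). Over the last of these, 14 moved up and 9 down. The largest were *Slc16a1* (-1.55 ± 0.105, adjusted p = 6.05e-06), *Ppp1r3c* (-1.49 ± 0.371, adjusted p = 0.0165) and *Eno2* (-1.16 ± 0.139, adjusted p = 0.000260) downwards, and *Slc2a1* (0.90 ± 0.1, adjusted p = 0.000157), *Hk2* (0.82 ± 0.0622, adjusted p = 1.31e-05) and *Aldoa* (0.77 ± 0.0725, adjusted p = 5.52e-05) upwards. With 1.5-fold as well, the interactions held for 1, 8 and 12 rows (2.63%, 21.1% and 31.6%, against 10.4%, 14.3% and 18% of all genes). The steps from P1 to P6 and from P6 to P8 then held for 3 and 10 rows under the label WT (7.89% and 26.3%, against 23.1% and 18.9%) and for 3 and 11 under the label cKO (7.89% and 28.9%, against 21.4% and 24%). With the unadjusted p and 1.5-fold, the interactions again numbered 1, 8 and 12, against 15.4%, 19% and 22.5% of all genes. By that rule the steps numbered 4 and 10 under the label WT (10.5% and 26.3%, against 25.8% and 21.9%) and 4 and 11 under the label cKO (10.5% and 28.9%, against 24.1% and 26.6%). At 1.5-fold the shares of the members that changed from P1 to P6 were thus below those of all genes, with both p rules. The steps and interactions share libraries with the comparisons within ages.

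Genes of the same pathways outside the 38 were taken from lists. Of 33 other glucose transport, glycolysis and pyruvate genes, 3 were higher and none lower at P1, with 8 and 4 at P6 and then 6 and 8 at P8. The P1 shares over all genes tested were 6.54% (higher) with 2.94% (lower). For P6 these shares were 13.2% (higher) with 12.5% (lower). In the P8 comparison 19.6% of all genes were called higher, while 14.8% were called lower. *Emb*, which encodes embigin, a partner of monocarboxylate transporters at the membrane, was lower at P6 and P8 by log2 fold changes of -2.90 and -2.96 (adjusted p = 8.40e-08 and 4.27e-08), with 230 ± 21.4 against 29.5 ± 0.00686 CPM at P8 (SD, n = 2). *Hk3*, a hexokinase of myeloid cells, gave 25.6 ± 1.83 against 142 ± 5.98 CPM at P8, a log2 fold change of 2.48 (adjusted p = 2.69e-08), in libraries where 8 of 10 microglia markers were higher. *Eno3*, the muscle enolase, was higher at P6 and P8 (2.15 and 1.19, adjusted p = 0.000116 and 0.00258).

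Of 20 other glycogen genes, 1 was higher and 1 lower at P1, with 4 and 3 at P6 and then 4 and 3 at P8. The shares of all genes given with the previous list stand beside the counts of this paragraph too. *Pygl*, the liver form of glycogen phosphorylase, is outside the rule for named genes and was picked after its values were seen. Unlike *Pygb*, it was higher at P6 and P8, by 0.78 and 0.41 (adjusted p = 4.26e-05 and 0.00138), with 54.7 ± 0.573 against 72.7 ± 0.274 CPM at P8 (SD, n = 2), and it was not called at P1 (0.24, adjusted p = 0.0654). *Pgm2l1* was lower at P6 (-0.87, adjusted p = 0.0160) and higher at P8 (1.62, adjusted p = 0.000343), and *Phkg1*, a catalytic subunit of phosphorylase kinase, was higher at all 3 ages (0.66, 1.02 and 0.73, adjusted p = 0.0263, 0.000984 and 0.00532). Of 7 pentose phosphate genes, 2 were lower and none higher at both P1 and P6, while 3 were higher and none lower at P8. Of 18 genes of the citrate cycle and pyruvate carboxylase, none was called at P1, 2 were lower at P6, and 2 were higher and 2 lower at P8. The gene of pyruvate carboxylase, *Pcx*, was 1 of the 2 lower at P8.

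Markers of other cell types were compared in the same fit, since they moved between the same libraries. The genes named are the 2 most abundant of a list, whether called or not. Of 9 fibroblast and meningeal markers, 8 were higher and none lower at P1, and none was higher and 8 lower at P6 and at P8. Shares of all genes tested stand beside these marker counts. Called higher were 6.54% (P1), 13.2% (P6) and 19.6% (P8) of genes. Called lower were 2.94% (P1), 12.5% (P6) and 14.8% (P8). *Col1a1* gave 241 against 1080 CPM at P1 and 9720 against 3960 CPM at P8, and *Col1a2* 74.5 against 846 CPM and 9240 against 2990 CPM (means, n = 2). Of 10 microglia markers, 7 were lower at P1, 2 were higher and 2 lower at P6, and 8 were higher and 1 lower at P8, with *C1qa* at 590 against 1410 CPM and *C1qc* at 526 against 1250 CPM at P8. The astrocyte list had 2 higher and 2 lower at P1, with 1 and 3 at P6 and then 1 and 8 at P8, and *Aqp4* (447 against 111 CPM) and *Gfap* (378 against 180 CPM) were lower at P8. Astrocyte markers were present in every library, with sums of 971.3 to 2546 CPM.

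Of 9 oligodendrocyte lineage markers, 1 was higher at P1, 1 was higher and 3 lower at P6, and 2 and 3 at P8. For this and the following lists the shares of all genes are those of the previous paragraph. At P8 *Cspg4*, which is on the mural list too, was lower (85.8 against 33.9 CPM), and *Cnp*, at 39.6 against 45.5 CPM, was not called (adjusted p = 0.0862). Of 4 neuron markers tested, 1 was higher at P1 and 3 each at P6 (*Stmn2*, *Map2* and *Syt1*) and P8 (*Stmn2*, *Syt1* and *Tubb3*). At P8 *Stmn2* gave 49.8 against 152 CPM, and *Map2*, at 63.4 against 93.0 CPM, was not called (adjusted p = 0.202). Of 5 endothelial markers, 2 were higher at P1, 3 lower at P6, and 2 higher and 2 lower at P8. Mural markers, 7 in number, had 3 higher at P1, with 3 and 4 at P6 and then 3 and 2 at P8, with *Acta2* at 1590 against 2050 CPM and *Tagln* at 685 against 907 CPM. Of 10 proliferation genes, 2 were lower at P1, 7 at P6, and 2 higher and 2 lower at P8. At P8 *Top2a* was lower (151 against 123 CPM), and *Mki67*, at 158 against 151 CPM, was not called (adjusted p = 0.503). Their part in the differences of the glycolytic, lactate and glycogen genes was not tested.

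**Figure D5:**
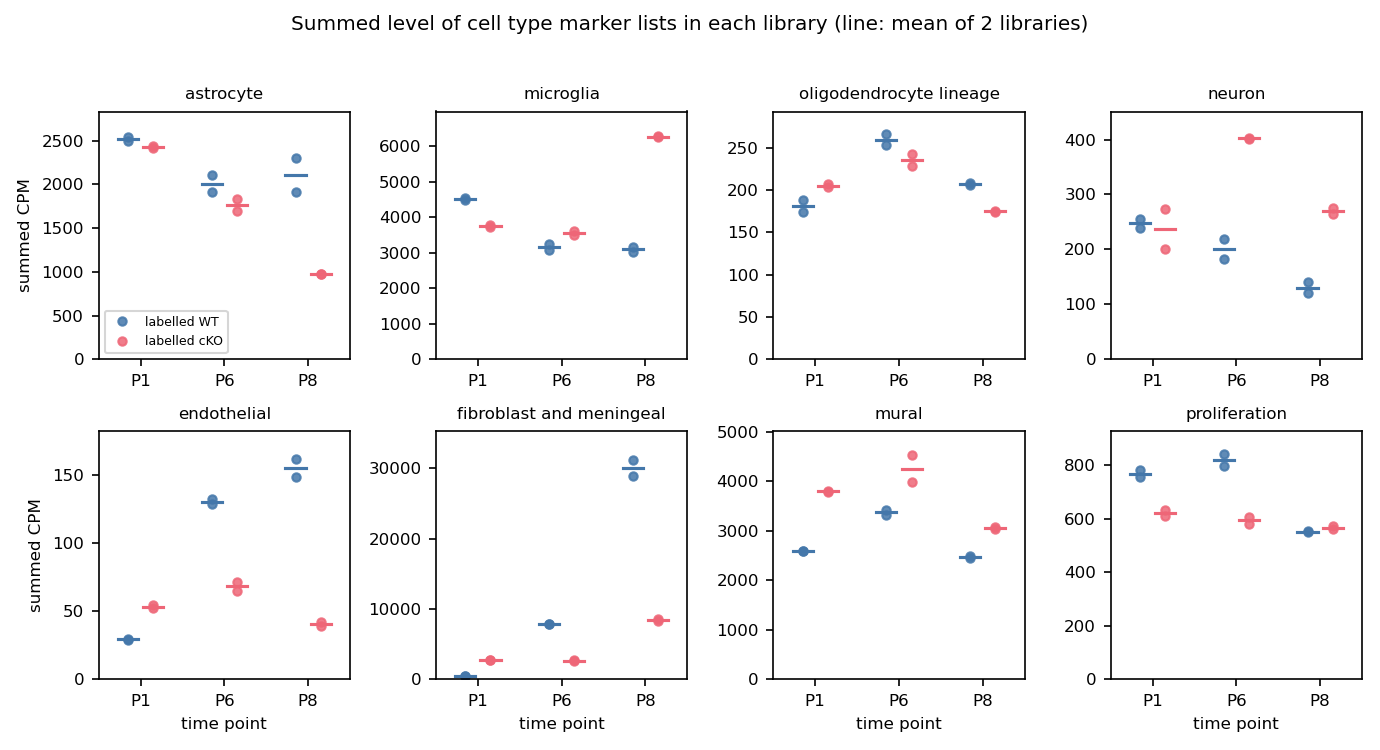
Summed CPM of 8 marker lists in each library, with points for libraries and lines for the mean of 2 libraries. At P8 fibroblast and meningeal markers stand at 31140 and 28990 CPM (WT) against 8287 and 8537 CPM (cKO), microglia markers at 3164 and 3022 against 6292 and 6244 CPM, and astrocyte markers at 1910 and 2302 against 971.3 and 974.7 CPM.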

How the data were processed

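RNA was sequenced from 12 libraries of primary astrocytes, in 6 groups of 2 set by the labels. The authors mapped the reads with HISAT2 to mm10 and deposited raw counts per gene. The counting program was not given in the sources used here, nor were its use of strand and its rule for multiply matching reads. Overlapping genes and pseudogenes could therefore share reads. Library totals lay between 54413504 and 89183250 counts, and the common biological coefficient of variation was 0.178.

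Counts were fitted in edgeR 4.0.16 (R 4.3.3, limma 3.58.1) with 6 group means over all 12 libraries, TMM scaling, filterByExpr (17938 of 18903 genes) and the quasi-likelihood test, with Benjamini-Hochberg adjustment over all genes tested. A gene was called at an adjusted p below 0.05. Standard errors of log2 fold changes were derived from the test, as the absolute log2 fold change divided by the square root of its F statistic. The 95% confidence intervals were built from these standard errors. RPKM used exonic lengths from GENCODE vM21, and promoters came from the RefSeq table on GRCm38.p6. The fit was also run on simulated counts with 200 genes changed in the P8 libraries labelled cKO. These counts were drawn with the spread estimated from the same data. The run therefore checks the code and cannot speak to the results above.

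Values in every library are given for members called at 1.5-fold or more between labels at any age and for the most abundant member of each role. From the 5 pathway lists, up to 3 genes with the largest difference among those called at 2-fold and a mean of at least 1 CPM are named, and from the 8 marker lists (astrocyte, microglia, oligodendrocyte lineage, neuron, endothelial, fibroblast and meningeal, mural, proliferation) the 2 most abundant. The members and lists were chosen with earlier results of these data known. Alternatives were other scalings, no filter, DESeq2 1.42.0, the compared libraries alone, a replicate block, each library left out, a fold threshold and, chosen after seeing the data, pseudogene rows summed into their member.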

Additional observations from a re-analysis of the deposited data

Results flagged for a closer look

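For each member the difference between labels was compared between ages by an interaction term in edgeR's quasi-likelihood fit, adjusted over all genes tested, and those that passed are given as the later log2 fold change minus the earlier. From P1 to P6, 13 members passed (adjusted p between 0.000421 and 0.0381). Without P1 cKO replicate 2 the number was 7, and without P1 WT replicate 2 or without P6 WT replicate 1 it was 8. The difference moved up for *Pfkm* (0.61), *Slc2a3* (0.52), *Ugp2* (0.44), *Slc16a3* (0.43), *Pdk2* (0.43), *Slc2a1* (0.38), *Hk2* (0.36), *Eno1* (0.30) and *Pgk1* (0.26). It moved down for *Hif1a* (-0.45), *Ldha* (-0.40), *Pdha1* (-0.35) and *Pgam1* (-0.20).

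From P6 to P8, 17 members passed (adjusted p between 1.57e-05 and 0.0356). The upward changes were those of *Aldoa* (0.61), *Pgam1* (0.61), *Pkm* (0.60), *Slc2a1* (0.52), *Hk2* (0.46), *Pgk1* (0.40), *Gpi1* (0.39) and *Eno1* (0.36). The downward changes were those of *Ppp1r3c* (-1.46), *Slc16a1* (-1.45), *Eno2* (-1.23), *Slc2a3* (-0.76), *Pfkm* (-0.72), *Aldoc* (-0.56), *Pygb* (-0.49), *Pfkfb2* (-0.37) and *Pdha1* (-0.17). *Pfkm* and *Slc2a3* had moved up over the earlier step and moved down over this one, and *Pgam1* had moved down and moved up.

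From P1 to P8, 23 members passed (adjusted p between 6.05e-06 and 0.0444). Upward changes were found for *Slc2a1* (0.90), *Hk2* (0.82), *Aldoa* (0.77), *Pkm* (0.73), *Eno1* (0.66), *Pgk1* (0.66), *Slc16a3* (0.63), *Gbe1* (0.57), *Gpi1* (0.50), *Tpi1* (0.44), *Ugp2* (0.44), *Pgam1* (0.42), *Pgm2* (0.39) and *Pfkl* (0.34). Downward changes were found for *Slc16a1* (-1.55), *Ppp1r3c* (-1.49), *Eno2* (-1.16), *Aldoc* (-0.96), *Pfkfb2* (-0.62), *Pdha1* (-0.53), *Pygb* (-0.46), *Hif1a* (-0.44) and *Ldha* (-0.35). The 3 sets of values share libraries and are not independent of each other.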

How the results depend on the processing

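Of 54 calls of a member between labels, 37 kept their call and direction in every alternative and 17 lost the call in at least 1, of which 16 did so when 1 library was left out, and none was reversed. With a fold change of at least 1.5 added, the counts of members higher and lower fell to 0 and 1 (P1), 2 and 2 (P6) and 8 and 7 (P8). Those that changed with age were then 3 and 10 under the label WT (to P6 and to P8), 3 and 11 under the label cKO, and those whose difference between labels changed were 1 (P1 to P6), 8 (P6 to P8) and 12 (P1 to P8). With an unadjusted p and 1.5-fold, the study's rule, the counts were 0 higher and 2 lower at P1, 2 and 2 at P6, 8 and 7 at P8, 4 and 10 under the label WT, 4 and 11 under the label cKO, and 1, 8 and 12 for the interactions. In a fit of the compared groups alone, 1 member was higher at P1 and 8 at P6. With each library left out in turn, the number higher at P1 ranged from 1 to 3 and the number lower from 3 to 5, and the interaction from P1 to P6 held for 7 to 12 members. The count of 1 came without P1 WT replicate 1, P1 WT replicate 2 or P1 cKO replicate 2, that of 5 without P1 WT replicate 1 and that of 7 without P1 cKO replicate 2. The median over members at P8 ranged from 0.07 to 0.15. Scaling by library totals alone moved the median log2 change of all genes from P1 to P6 to -0.11 under both labels and that of the members to -0.19 (WT) and -0.08 (cKO).

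The correlations of same-numbered libraries' deviations over all genes tested were -0.03, -0.00553 and -0.0627 at P1, P6 and P8. No pairing by replicate number was seen in these values, which cannot show how the cultures were prepared. With the replicate number as a block, the counts higher and lower were 2 and 3 (P1), 13 and 9 (P6) and 14 and 11 (P8). The calls of *Eno2* at P1 (adjusted p = 0.06) and of *Gapdh* at P8 (adjusted p = 0.0581) were those lost with the replicate block. With 2 libraries per group, differences of low genes such as *Ppp1r3c* and the minor *Aldoa* row carry wide errors.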
